A study of Mus musculus with 4 samples.

Results

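Isl1 second heart field mesoderm of the E10.5 mouse heart was taken as the barcodes, chosen by their own UMI counts, that carried Isl1 and a fibrillar collagen but not the defining transcripts of muscle, endothelium, epithelium or neurons. A barcode was kept when it held at least 1 UMI (unique molecular identifier, a count of captured mRNA molecules) of Isl1 and of Col1a2, under 5 Tnnt2 UMIs per 10000, no UMI of Cdh5, Pecam1 or Epcam, and at most 1 UMI of Stmn4. These 1563 cells, called Isl1 cells here, were found among 28025 barcodes that had 500 to 6000 genes, 2000 to 50000 UMIs and at most 20% mitochondrial UMIs, out of 33589 barcodes in the files.

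The second heart field is a population of mesodermal progenitors in the pharyngeal and splanchnic wall that is added to both poles of the heart tube after the tube has formed. Its anterior cells build the outflow tract and right ventricle and its posterior cells the atria and the dorsal mesenchyme that takes part in atrial septation. The LIM homeodomain factor Isl1 marks these progenitors and is turned off as they differentiate into muscle, and hedgehog, BMP, FGF, Wnt and retinoic acid signals set how long they divide and which pole they join.

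Hearts were dissected from C57BL/6J embryos at E10.5, dissociated with collagenase and run on the 10x Genomics 3′ single-cell assay. Wild-type (Wt) embryos gave the libraries Wt1 and Wt2, and embryos homozygous for the Cyp51 I383V allele (Ho), made with CRISPR/Cas9 and backcrossed to C57BL/6, gave Ho1 and Ho2. The labels carry the entry CRISPR/Cas9 for the treatment of all 4 libraries, and they do not say how many embryos were pooled in a library or whether litters were shared, so p-values measure only the spread between these 4 libraries. Cyp51 encodes the lanosterol demethylase of cholesterol synthesis, and the comparison addresses what the substitution changes in the developing heart. Total depth was 109893733 UMIs in the Wt1 file, 117034633 in that of Wt2, 127018819 in that of Ho1 and 107377100 in that of Ho2.

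There were 704 Isl1 cells in Wt1, 392 in the Wt2 library, 34 in Ho1 and 433 in Ho2. They made up 8.50% of the barcodes within the limits in Wt1 (exact Clopper-Pearson 95% interval 7.91% to 9.12%), 5.73% in Wt2 (5.19% to 6.31%), 0.490% in Ho1 (0.340% to 0.685%) and 7.25% in Ho2 (6.61% to 7.94%). Ho1 was far below the other libraries, and Ho2 lay between the Wt libraries. When each barcode was first thinned to 2000 UMIs, the selection took 1.46% and 1.74% of barcodes in Wt1 and Wt2, 0.0577% in Ho1 and 1.32% in Ho2. The value of Ho2 then lay below both Wt libraries, without intervals to show the counting error. Every gene limit of the selection was applied to the thinned counts, so that a different set of cells was taken. The mean was 7.11% ± 1.96 (SD, n = 2) in Wt and 3.87% ± 4.78 (SD, n = 2) in Ho, a difference of -3.24 percentage points with a p-value of 0.667 in an exact permutation test (two-sided), where 0.333 is the smallest that 2 libraries against 2 allow. In the thinned barcodes the difference was -0.910 points, with an exact permutation p-value of 0.333. Without Ho1 the unthinned difference was 0.139 points in the other direction.

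Ho1 stood apart in more than this share. Of the barcodes that met every other limit of the selection, 48.5%, 57.1% and 55.6% carried Isl1 in Wt1, Wt2 and Ho2, and 13.1% did in Ho1. Ho1 also held 3 epithelial barcodes (at least 2 Epcam UMIs), against 517 in Wt1, 206 in Wt2 and 286 in Ho2. It was the only library with Xist, the transcript of the inactive X chromosome of females, at 388.5 CPM (UMIs per 1000000 UMIs of the summed Isl1 cells) and 0 CPM in the Isl1 cells of the others. Sex, the tissue captured and genotype cannot be told apart for this library, and results are therefore given with and without it.

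The selection sets the levels of its own genes, which are given as a description. Isl1 stood at 264 and 365 CPM in Wt1 and Wt2 and at 133 and 262 CPM in Ho1 and Ho2. The median Isl1 cell had 2 Isl1 UMIs in Wt1 and 4 in Wt2, but 1 in Ho1 and 3 in Ho2, and the cells with exactly 1 UMI, just inside the limit, made up 30.5%, 16.6%, 55.9% and 26.3%. At the Tnnt2 limit, 11, 13, 4 and 12 cells lay just inside (4 to 5 UMIs per 10000) and 8, 15, 10 and 7 just outside (5 to 6), in the order Wt1, Wt2, Ho1, Ho2. At the Stmn4 limit, 18, 22, 2 and 10 cells with 1 UMI were inside and 12, 13, 1 and 5 with 2 UMIs outside. The plot of shares and Isl1 UMIs shows both features by library.

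**Figure D1:**
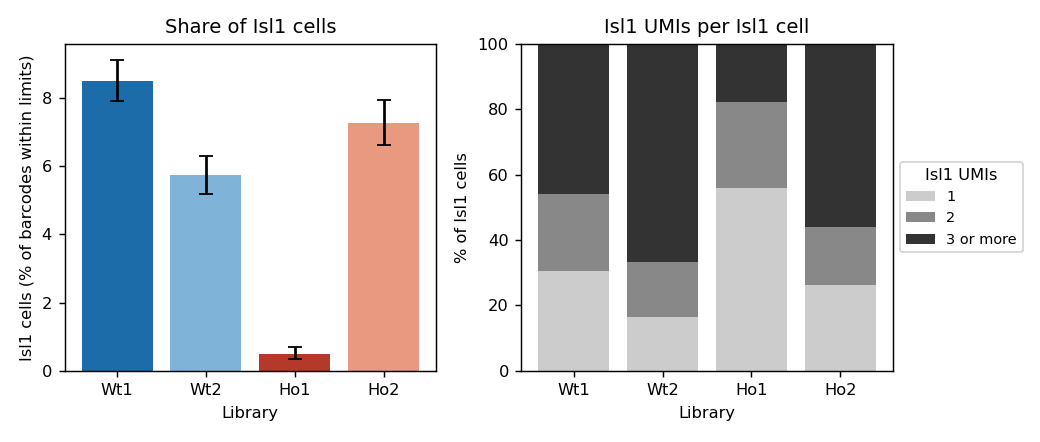
Left, the share of Isl1 cells among barcodes within the limits (%, y axis) in each library, with exact 95% binomial intervals as error bars that cover counting error only; right, the Isl1 cells of each library divided by their number of Isl1 UMIs. Ho1 has the lowest share (0.490%) and the highest proportion of cells with 1 Isl1 UMI (55.9%).

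Isl1 itself was not limited to the selected cells. After each cell was thinned to 2000 UMIs, 20.2%, 32.0%, 3.86% and 22.5% of the barcodes that met the other limits had an Isl1 UMI in Wt1, Wt2, Ho1 and Ho2, against 4.04%, 4.89%, 1.58% and 5.14% of endothelial barcodes. Without thinning, 48.5%, 57.1%, 13.1% and 55.6% of the former and 18.4%, 19.4%, 9.89% and 19.0% of the latter did, at median depths of 11660, 12741, 15314 and 14932 UMIs against 13738, 16172, 16473 and 16610. The share in Wt1, Wt2 and Ho2 was several times the endothelial one, and in Ho1 the interval (1.87% to 6.99%) reached down to the interval of its endothelial barcodes (1.08% to 2.23%). Cardiomyocyte barcodes carried Isl1 in 7.70%, 4.62%, 3.36% and 6.88% after thinning and barcodes with at least 3 Stmn4 UMIs in 10.1%, 13.7%, 5.80% and 11.9%, so that in Ho1 the Stmn4 barcodes had a larger share than those that met the other limits. Epithelial barcodes (at least 2 Epcam UMIs) carried it in 35.2% of barcodes in Wt1, 51.5% in Wt2 and 20.3% in Ho2 after thinning. No barcode sequence was shared between Isl1 cells of different libraries, and 14 to 34 were shared between any pair of whole files.

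The label of the cells was checked on 13 markers that the selection did not use, with uneven results. Mfap4 is a microfibril-associated glycoprotein of mesenchyme and Hand1 a bHLH factor of heart and lateral mesoderm. At 2000 UMIs per cell, Mfap4 was detected in 26.4% of the Isl1 cells from Wt1 and 30.1% from Wt2, and in 5.88% from Ho1 and 18.9% from Ho2. Hand1 was detected in 21.2%, 42.9%, 5.88% and 19.4%. In endothelial barcodes the highest share over libraries was 1.13% for Mfap4 and 0.608% for Hand1, so that both markers were above background in Wt1, Wt2 and Ho2, while in Ho1 each rested on 2 of 34 cells.

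Other markers of the field were more uneven. Tbx1, the pharyngeal T-box factor of the anterior field, was found in 4.83% of Isl1 cells of Wt1, 4.85% of Wt2 and 3.93% of Ho2, above the endothelial shares of 0.521%, 0.447% and 0.202%. Foxf1, a splanchnic forkhead factor downstream of hedgehog, was found in 7.67%, 5.36% and 16.9% of the same libraries, and Osr1, of the posterior field, in 4.12%, 2.81% and 14.1%. In Ho1, 0 of 34 cells had a Tbx1, Foxf1 or Osr1 UMI at this depth. The interval for each (0% to 10.3%) covers the Wt shares. Ho2 held the most Foxf1 and Osr1 cells. Tbx5, the T-box factor of the posterior field and the atria, was detected in 1.56% and 1.02% of Wt cells and in 11.8% and 6.93% of Ho cells. The ligand genes of the field were nearly absent at this depth, with Fgf8 in 0.994%, 0.255%, 2.94% and 0.693% of Isl1 cells (1 cell in Ho1) and Fgf10 in 1.14%, 0.510%, 0% and 0.693%, against 0 endothelial barcodes for both. Nkx2-5 was found in 2.41%, 2.04%, 2.94% and 3.93% and Mef2c, a MADS box factor, in 17.2%, 22.7%, 26.5% and 16.9%, each above the endothelial share of its library, although Nkx2-5 in Ho1 was 1 of 34 cells with an interval (0.0744% to 15.3%) that covers the endothelial share (0.274%). Hand2, a bHLH factor related to Hand1, was found in 29.4% and 36.5% of Wt cells against 18.5% and 18.4% of endothelial barcodes, but in Ho2 its share (18.7%) was no higher than the endothelial one (19.0%). Gata6, a zinc finger factor, was found in 16.9%, 25.3%, 20.6% and 21.5%, against 14.1% to 17.1% of endothelial barcodes. Gata4, a zinc finger factor of the early heart, was found in 2.84%, 4.08%, 2.94% and 5.54% of Isl1 cells, below the endothelial share in every library (13.1% to 17.1%). Of 13 marker shares compared between Ho and Wt, none passed an exact permutation test, in which p-values cannot fall below 0.333 and the lowest adjusted value was 0.722.

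**Figure D2:**
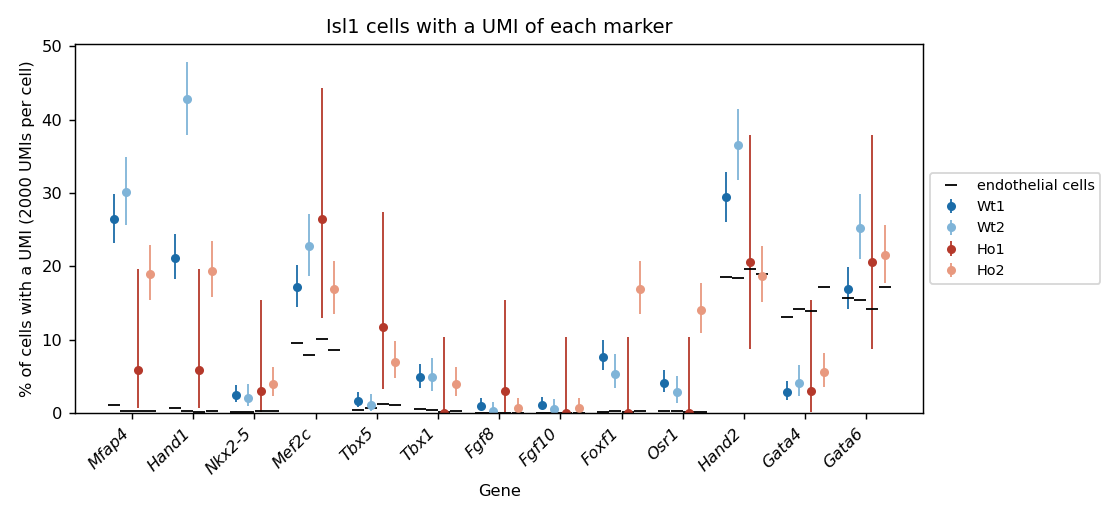
Share of Isl1 cells with a UMI of each marker (%, y axis) after thinning every cell to 2000 UMIs, by library, with exact 95% binomial intervals (counting error only) and black dashes for endothelial cells of the same library. Mfap4 and Hand1 lie above the endothelial dashes in every library, with 5.88% each in Ho1, and Gata4 lies below them.

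Isl1 cells of Ho1 also carried more muscle transcripts. The 14 cardiomyocyte markers of a list summed to 862 and 1542 CPM in the Wt libraries, to 5223 in Ho1 and to 1098 in Ho2, and the most abundant of them, the atrial light chain Myl7, reached 2200 CPM in Ho1 against 234, 369 and 356. Within Ho1, Myl7 stood at 1569, 5131 and 991 CPM in the 19, 9 and 6 cells with 1, 2 and at least 3 Isl1 UMIs. Cells with no Tnnt2 UMI numbered 13 of 34 in Ho1, against 495 of 704 in Wt1, 199 of 392 in Wt2 and 232 of 433 in Ho2. How far a few cells carry the Ho1 sum was not tested. The hyaluronan link protein Hapln1, a cushion gene, stood at 237 CPM in Ho1 and at 20.2 to 34.0 in the others. Mfap4 was at 25.5 CPM in Ho1 and at 108 to 151 in the others, and Hand1 at 37.3 against 116 to 287. By the summed levels of Mfap4 and Hand1, the 34 cells of Ho1 thus met the label less well than the cells of Wt1, Wt2 and Ho2. At 2000 UMIs per cell the Ho1 intervals of both markers (0.720% to 19.7%) reached those of Ho2 (from 15.4% and 15.8%). Other markers did not share this order. The shares of Mef2c and Tbx5 were highest in Ho1, whereas no Ho1 cell had Tbx1, Foxf1 or Osr1 at that depth.

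To see what accompanied Isl1, its cells were compared with the 1614 barcodes that met every other limit but had no Isl1 UMI. UMIs were summed per library and compared within libraries by edgeR's quasi-likelihood test with Benjamini-Hochberg adjustment over all genes tested. Of 11660 genes, 1712 (14.7%) had an adjusted p-value under 0.05, 676 (5.80%) higher and 1036 (8.89%) lower in Isl1 cells. Among the genes that rose were transcription factors and signals of the heart fields, and among those that fell were genes of the epicardium, the outer layer of the heart. The counts include 2 genes of the selection rules, Isl1 and Crabp1. Isl1 cells were somewhat shallower, with a median of 10540.5 and 10634.5 UMIs in Wt1 and Wt2 against 13405 and 16155, and of 13655.5 and 14008 UMIs in Ho1 and Ho2 against 15984 and 16550.

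Hand1 had the largest rise among abundant genes. It stood at 129, 287, 37.3 and 116 CPM in Isl1 cells of Wt1, Wt2, Ho1 and Ho2 and at 23.2, 20.4, 1.54 and 16.1 in cells without Isl1. Each library was higher in Isl1 cells, with a log2 fold change of 2.99 ± 0.232 (SE) and an adjusted edgeR p-value of 1.61e-04. In sums of cells, more cells with a transcript and more transcript per cell cannot be told apart.

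The ligand gene Bmp4, which acts on outflow and pharyngeal mesoderm, stood at 130, 202, 106 and 160 CPM against 33.1, 35.6, 22.3 and 45.8 (log2 fold change 1.99 ± 0.118, adjusted edgeR p-value 8.6e-05). The chemokine gene Cxcl12 stood at 298, 521, 51.0 and 298 CPM against 94.8, 55.2, 22.8 and 46.2 (2.21 ± 0.272, 0.00116). Both were higher in every library, and Ho1 had the lowest Cxcl12 level of the Isl1 cells. The Notch ligand gene Jag1 was higher by 1.91 ± 0.186 and the ephrin gene Efnb2 by 1.80 ± 0.122 on the log2 scale. The others of the 12 genes with the largest rise were Ntng1 (2.77 ± 0.260), the G-protein regulator Rgs5 (2.65 ± 0.266), Phlda2 (2.11 ± 0.174), Col9a1 (1.90 ± 0.156), Pgam2 (1.76 ± 0.197), the muscle LIM protein gene Csrp3 (1.62 ± 0.332) and Cited1 (1.57 ± 0.204). All were higher in 4 of 4 libraries.

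Of 24 tested factors of the second heart field (Isl1 left out), 12 were higher and 2 lower, with a median log2 fold change of 0.70, beside 5.80% higher, 8.89% lower and a median of -0.01 over all genes tested. Without Ho1, 14 of 25 were higher and 3 lower. Nkx2-5, the homeobox factor of the cardiac crescent, stood at 11.6, 13.2, 13.7 and 16.1 CPM against 2.00, 1.18, 2.05 and 2.14, a log2 fold change of 2.74 ± 0.232. Tbx1 rose by 2.06 ± 0.284 and Tlx1 by 2.41 ± 0.395. Mef2c, Hand2, Gata5, Osr1, Smarcd3, Smyd1, Fgf8 and Bmp4 also rose, whereas Gata4 (-1.16 ± 0.136) and the ligand gene Wnt11 (-1.71 ± 0.237) fell. Fgf8 rested on 3 UMIs in all cells without Isl1. Of 10 tested genes of the outflow pole, 5 were higher and 2 lower (median 0.64), with the guidance ligand gene Sema3c at 23.4, 28.2, 27.5 and 26.6 CPM against 2.20, 6.46, 9.74 and 8.54 (2.08 ± 0.273). Its Isl1-cell levels differed little between the 4 libraries. Lists of neighbouring mesenchyme did not share a direction. Of 10 tested genes of splanchnic, lung and foregut mesenchyme, 5 rose and none fell (Foxf1, Foxf2, Hoxb4, Fendrr and Tbx4, median 0.94). Of 13 Dlx and endothelin genes of the pharyngeal arches, 5 rose and none fell (Ednra, Alx1, Gsc, Hand2 and Prrx2, median 0.12). Without Ho1 the former list had 5 of 9 higher and the latter 4 of 13 higher and 1 lower, and without Ho2 the latter had 1 of 12 higher. Of 7 tested neural crest mesenchyme markers, 1 rose (Crabp1, a gene of the selection rules) and 2 fell, with a median of -0.12. Cushion markers had 5 of 8 lower and none higher.

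Genes of the hedgehog response were higher as well. Ptch1, the receptor that is also a transcriptional target of the pathway, stood at 81.8, 79.8, 25.5 and 84.8 CPM against 35.4, 19.4, 10.3 and 25.1 (log2 fold change 1.49 ± 0.146, adjusted edgeR p-value 4.22e-04). Gli1, the transcriptional effector, stood at 14.3, 13.0, 1.96 and 16.1 CPM against 4.96, 2.35, 1.79 and 4.27 (1.70 ± 0.239, 0.00214), and Ho1 contributed 1 UMI to its Isl1-cell sum. Ho1 had the lowest levels of both genes in either set of cells. In all, 6 of 18 tested genes of the pathway rose (Ptch1, Gli1, Hhip, Foxf1, Foxf2 and Osr1), Gas1, a co-receptor, fell by 1.20 on the log2 scale, and the list had a median of 0.36. Among all genes tested, 5.80% rose and 8.89% fell, with a median of -0.01. Smo, Gli2 and Gli3 had log2 fold changes of 0.23, 0.64 and 0.14 that did not pass. Without Ho1 the counts were again 6 higher and 1 lower of 18. Shh was at 0 UMIs in the Isl1 cells of every library.

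The epicardial markers were lower in Isl1 cells for 7 of 8 tested genes, with a median log2 fold change of -2.98, and again for 7 of 8 without Ho1. The zinc finger factor Wt1, which shares its name with a library, stood at 3.96, 6.83, 19.6 and 3.96 CPM in Isl1 cells of Wt1, Wt2, Ho1 and Ho2 and at 17.4, 83.0, 68.7 and 78.9 in cells without Isl1 (-3.34 ± 0.327, adjusted edgeR p-value 4.22e-04). The T-box factor Tbx18 had a log2 fold change of -3.06 and the uroplakin genes Upk1b and Upk3b -3.70 and -2.90. The keratin genes Krt7 and Krt19 had log2 fold changes of -4.16 and -3.17, and the proteoglycan gene Dcn -3.45. Every one was lower in 4 of 4 libraries. The epicardial list, led by Sparc, summed to 1019, 3712, 2958 and 3039 CPM in cells without Isl1, so that Wt1 held the least of it, and how far the epicardial cells in that set make the difference from Isl1 cells was not tested. Cushion markers were lower for 5 of 8 genes, beside 8.89% lower and 5.80% higher of all genes tested. Dissociation and heat shock genes were lower for 8 of 23 and higher for 1, with a median of -0.28. The part of cell handling in this comparison was not tested. Glycolysis and hypoxia genes were lower for 10 of 20 and higher for 1, or lower for 9 of 19 without Aldoa, whose symbol is carried by 2 identifiers, and for 4 of 20 without Wt2, where 348 of all 11855 genes were lower. The plot of both cell sets shows the genes in each library.

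**Figure D3:**
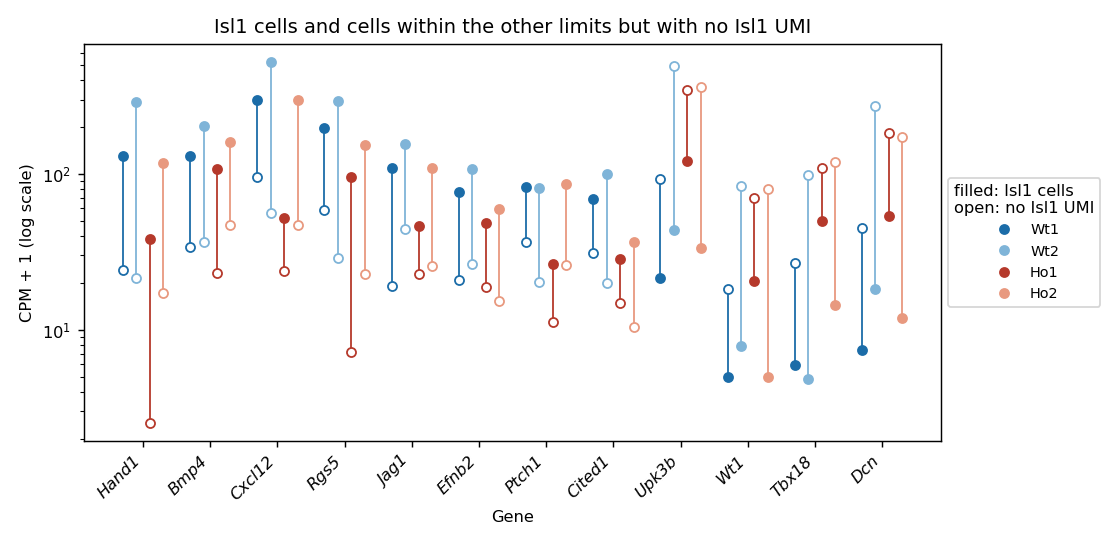
Level of 12 genes (CPM + 1, log scale) in Isl1 cells (filled) and in cells that met the other limits without an Isl1 UMI (open), joined by a line for each library. Hand1 to Cited1 are higher in Isl1 cells and Upk3b to Dcn lower in all 4 libraries.

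Sarcomere genes did not follow a single direction. Of 13 tested cardiomyocyte markers other than Tnnt2, 6 rose in Isl1 cells, among them Ttn (1.55), Myh7 (1.30) and Ryr2 (1.21), and Myl7 fell (-1.39). Among all genes tested, 5.80% rose and 8.89% fell. The list had 4 higher and 1 lower without Ho1 and 2 higher without Wt2. Myl7 stood at 234, 369, 2200 and 356 CPM in Isl1 cells against 483, 1294, 1954 and 1723, so that Ho1 alone was higher in Isl1 cells. Tnnt2 was limited in both sets. The cholesterol synthesis list had 4 of 29 genes lower (Idi1, Msmo1, Sc5d and Stard4) and none higher (1 lower without Ho2 and 0 without Wt2), beside 8.89% lower of all genes tested, with a median of -0.12. Of the S-phase genes 2 of 29 and of the G2/M genes 3 of 45 were lower, with medians of -0.14 and -0.05 and no gene higher, which is near or below that background.

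Levels were also compared between Isl1 cells with 1 and with at least 3 Isl1 UMIs, for the 5 genes that led when genes were ranked by their lowest ratio over the 4 libraries, a choice that fixes the direction. Jag1 went from 61.4, 98.6, 15.0 and 66.5 CPM in cells with 1 Isl1 UMI to 134, 177, 136 and 139 CPM in cells with at least 3. The long noncoding RNA Hand2os1 went from 239, 366, 98.8 and 139 CPM to 390, 588, 380 and 289, the netrin relative Ntng1 from 94.5, 55.8, 5.99 and 35.6 to 144, 92.6, 27.2 and 93.3, the semaphorin co-receptor Nrp2 from 53.4, 29.7, 24.0 and 28.6 to 80.8, 89.7, 149 and 60.6, and Cxcl12 from 236, 298, 24.0 and 171 to 355, 583, 81.5 and 367. The cells with at least 3 Isl1 UMIs numbered 324, 261, 6 and 243, and Ntng1 in Ho1 rested on 2 UMIs at either end. Cells with 2 Isl1 UMIs did not always lie between, with Hand2os1 at 401 CPM in Wt1, Cxcl12 at 118 CPM in Ho1 and Ntng1 at 0 in Ho1. Upk3b went the other way, from 24.3, 105, 183 and 56.6 CPM to 17.2, 30.6, 0 and 27.3. So did Myl7, from 326, 931, 1569 and 447 CPM to 198, 230, 991 and 278, although cells with 2 Isl1 UMIs held the most Myl7 in Ho1 and Ho2. Median depth was similar at both ends in Wt1 (10588 and 10896 UMIs), Wt2 (11452 and 10672) and Ho2 (13738.5 and 14080), but not in Ho1 (14948 and 11251).

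Isl1 cells were mixed for Hand1 and Foxf1. Hand1 was detected in 56.0% of them in Wt1 and 84.7% in Wt2, but in 17.6% in Ho1 and 45.7% in Ho2, at unequal depth. At 2000 UMIs per cell the share of Ho2 (19.4%, interval 15.8% to 23.4%) overlapped that of Wt1 (21.2%, 18.2% to 24.4%). With Hand1 came Cxcl12 (381, 582, 299 and 492 CPM against 196, 198, 19.9 and 148 without) and Rgs5 (271, 322, 404 and 273 against 106, 136, 55.2 and 58.2). Cells without a Hand1 UMI had more Nr2f2, a nuclear receptor of veins and atria, at 23.1, 36.5, 83.9 and 126 CPM against 11.9, 10.1, 17.6 and 22.6, and more Osr1, Tbx5 and Wnt2. Wnt2, a ligand of the posterior field and the lung mesenchyme, stood at 19.0, 39.2, 15.5 and 160 CPM in cells without Hand1 and at 6.07, 6.34, 17.6 and 23.6 with it. Its Ho1 value with Hand1 is 1 UMI in 6 cells, so that the order of Wnt2 rests on Wt1, Wt2 and Ho2.

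Foxf1 was detected in 27.7%, 24.7%, 5.88% and 58.4% of Isl1 cells in Wt1, Wt2, Ho1 and Ho2, most often in Ho2. Cells with Foxf1 had more Ptch1 in the libraries with enough of them, at 128, 126 and 97.1 CPM in Wt1, Wt2 and Ho2 against 59.9, 62.8 and 63.8 without. Gli1 stood at 23.6, 16.5 and 17.4 CPM against 9.88, 11.7 and 13.9, and Hhip, a hedgehog-binding target gene, at 15.6, 22.7 and 27.9 against 7.87, 7.33 and 15.1. Bmp4 was lower in cells with Foxf1, at 94.5, 99.6 and 124 CPM against 147, 240 and 221. The same order held in all 3 libraries. Cells with Foxf1 were also deeper, with medians of 12403, 12611 and 15343 UMIs in Wt1, Wt2 and Ho2 against 9786, 10353 and 12493 without. The part of depth in these differences was not tested. Ho1 had 2 cells with Foxf1 and is not read here.

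The selection also named a comparison with barcodes that had at least 3 Crabp1 UMIs and no Isl1 UMI, without any other limit. Crabp1 encodes a retinoic acid binding protein that is abundant in neural crest mesenchyme. There were 1355 such barcodes in Wt1, against 119 in Wt2, 114 in Ho1 and 138 in Ho2. Of 10773 genes, 345 (3.20%) passed, 141 (1.31%) higher and 204 (1.89%) lower in Isl1 cells, of which 6 are genes of the rules (2 higher and 4 lower). Because Tnnt2 was limited in Isl1 cells and not in Crabp1 cells, muscle genes are given as a description. The cardiomyocyte list summed to 3524, 16760, 30330 and 16640 CPM in Crabp1 cells, so that the set in Wt2, Ho1 and Ho2 was rich in muscle transcripts, and 12 of the genes with the largest fall in Isl1 cells were of this kind (Myl3, Cox6a2, Myh7, Myl2, Myh6, Actc1, Actn2, Myl1, Myl7, Tcap, Ttn and Acta1). When Crabp1 cells had to meet the other limits too (427 barcodes, 11 of them in Ho1), 136 genes passed, 107 higher and 29 lower, and Myh7 and Ttn were higher in Isl1 cells.

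Among the genes that rose against Crabp1 cells, Nrp2 stood at 69.2, 72.6, 43.2 and 47.8 CPM in Isl1 cells against 15.2, 12.2, 8.21 and 17.6 (log2 fold change 2.01 ± 0.184, adjusted edgeR p-value 6.69e-04). Ntng1 rose by 2.09 ± 0.161, Jag1 by 1.94 ± 0.241, Hand1 by 1.46 ± 0.291, Efnb2 by 1.42 ± 0.152, Col9a1 by 1.41 ± 0.225, Bmp4 by 1.40 ± 0.170 and Ptch1 by 1.16 ± 0.134. Hsd11b2, a steroid dehydrogenase gene, stood at 72.3, 91.4, 9.81 and 105 CPM against 16.9, 26.7, 2.28 and 45.9 (1.62 ± 0.166, 0.00132). Mfap4 was at 123, 151, 25.5 and 108 CPM against 54.3, 42.2, 16.0 and 46.3 (1.22 ± 0.158, 0.00368). The order held in each library, at lower levels in Ho1. Lix1 (1.24 ± 0.166) and Pmp22 (1.19 ± 0.265) completed the 12 genes with the largest rise.

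Of 7 tested neural crest mesenchyme markers other than Crabp1, 4 were lower in Isl1 cells and none higher (median -0.70, beside 0.01 over all genes). Without Ho1 4 of 8 were lower, but the count fell to 1 of 7 without Ho2, to 2 of 7 without Wt2 and to 1 of 5 with Crabp1 cells within the other limits, where 89 of 10798, 91 of 11200 and 29 of 10165 of all genes were lower. Prrx1, a homeobox factor of arch mesenchyme, stood at 51.2, 28.6, 7.85 and 21.5 CPM against 144, 61.9, 37.4 and 38.1 (log2 fold change -1.35 ± 0.173, adjusted edgeR p-value 0.00349). Twist1 fell by 0.51 and was lower in 3 of 4 libraries, and Dlx2 and Sox9 fell as well. Second heart field factors were higher for 4 of 21 genes (Hand1, Tbx1, Bmp4 and Tlx1) and lower for 1 (Gata4), beside 1.31% higher and 1.89% lower of all genes tested. Without Ho1 2 of 24 were higher and none lower, where 99 of all 11672 genes were higher and 111 lower. The plot of Isl1 and Crabp1 cells gives the values.

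**Figure D4:**
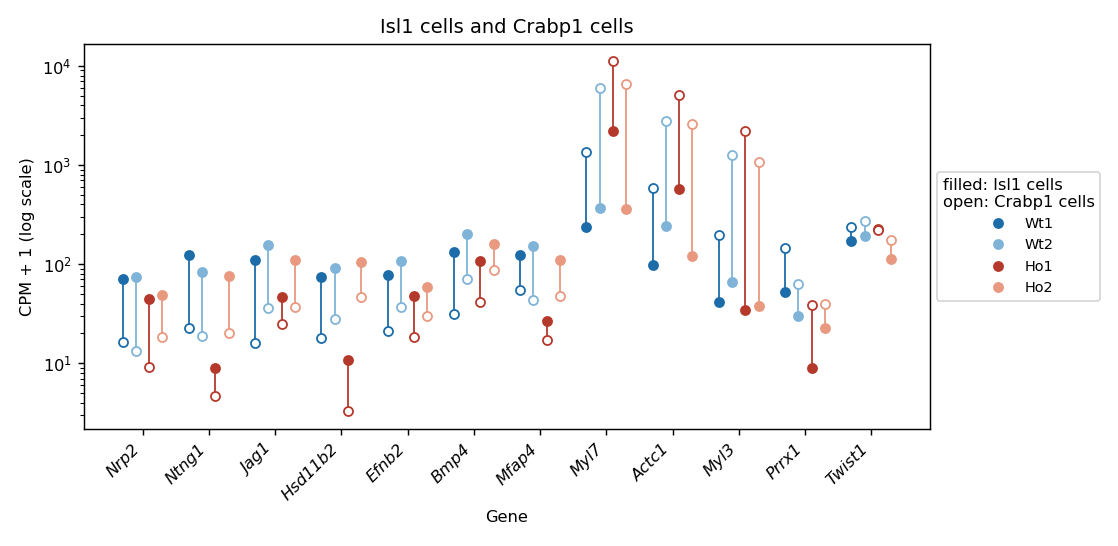
Level of 12 genes (CPM + 1, log scale) in Isl1 cells (filled) and in Crabp1 cells (open), joined by a line for each library. Nrp2 to Mfap4 are higher and Myl7 to Prrx1 lower in Isl1 cells of all 4 libraries, and Twist1 is lower in 3 of 4; Tnnt2 was limited in Isl1 cells only.

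Between Ho and Wt, the sums of Isl1 cells came to 8087483 UMIs (Wt1) and 4684011 UMIs (Wt2) and to 509647 UMIs (Ho1) and 6571222 UMIs (Ho2), so that 1 UMI is worth 1.96 CPM in Ho1 and at most 0.213 in the others. A count of 0 allows up to 5.89 CPM in Ho1, 0.371 in Wt1, 0.640 in Wt2 and 0.457 in Ho2, by counting error only. Of 11907 genes tested with edgeR, 0 (0%) passed after adjustment, and 409 (3.43%) were under 0.05 before it. DESeq2 called 6 genes, Nr2f2, Tbx5, Hoxa4, Barx1 and Tbx18 higher and Scx lower. Without Ho1, edgeR called 12 of 12413 genes (0.0967%), all higher in Ho2. Without Ho2 the genes called higher in Ho1 were led by Xist and Prtn3, a protease gene of myeloid cells. They included Ankrd1, Myl7, Srgn, Cd52 and Tyrobp. In that fit the cardiomyocyte, cushion, and venous pole and pacemaker lists had median log2 fold changes of 2.05, 1.19 and 1.35. The blood and macrophage list had a median of -5.07 over 6 genes, and all genes had -0.05. Each fit without a Ho library has 1 left in that group.

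Tbx5 and Nr2f2 had the smallest adjusted p-values. Tbx5 stood at 4.82 and 4.70 CPM in Wt1 and Wt2 and at 27.5 and 35.8 CPM in Ho1 and Ho2. Both Ho libraries were above both Wt libraries, at a log2 fold change of 2.81 ± 0.256 (adjusted edgeR p-value 0.0590). Nr2f2 stood at 16.9, 14.3, 76.5 and 80.8 CPM (2.34 ± 0.216, 0.0590), again without overlap between the groups. Both were among the genes called without Ho1, which leaves 1 Ho library that is assumed to vary like the Wt libraries. Their log2 fold changes there were 2.92 ± 0.224 and 2.38 ± 0.194. Neither was called without Wt2, and Tbx5 was not called without Ho2 or without Wt1. Over the leave-one-out fits Tbx5 ran from 2.51 to 2.92 and Nr2f2 from 2.19 to 2.52. With all 4 libraries kept, both genes also passed in DESeq2, without a filter on low counts, without Scrublet doublets and in cells with no Tnnt2 UMI, and Nr2f2 passed with at least 10 UMIs in every library. Neither passed with the replicate number as a block or in sums thinned to the smallest library, where the adjusted edgeR p-values of Nr2f2 were 0.0658 for the block and 0.557 and 0.441 for 2 draws of the thinned sums. Both also fell short with RLE scaling, with other limits on Isl1, depth and mitochondrial UMIs, and with no upper limits. Their adjusted edgeR p-values in those settings were 0.050 to 0.066. Of all genes tested, 13.9% had both Ho above both Wt and 18.7% had both Ho below.

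Nr2f2 stood at 83.9 and 126 CPM in the Isl1 cells of Ho without a Hand1 UMI against 23.1 and 36.5 in Wt, and at 17.6 and 22.6 CPM in those with one against 11.9 and 10.1. The Ho1 value in cells with Hand1 is 1 UMI in 6 cells, so that the difference in those cells rests on Ho2. The part of the unequal shares of Hand1 cells in the summed difference was not tested. Tbx5 was at 30.9 and 55.7 CPM in Ho cells without Hand1 against 7.43 and 13.5 in Wt. With Hand1 it was at 0 and 10.1 CPM in Ho against 2.70 and 3.04 in Wt. The Ho1 value is 0 UMIs in 6 cells, too few to read. The comparison of Tbx5 in those cells therefore rests on Ho2, which lay above both Wt libraries.

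Of the other genes called without Ho1, Wnt2 stood at 11.9, 11.5, 15.7 and 100 CPM in Wt1, Wt2, Ho1 and Ho2, Hoxa5 at 1.73, 3.42, 3.92 and 30.4, Osr1 at 19.7, 11.96, 13.7 and 87.6, and the Wnt agonist gene Rspo2 at 5.94, 3.20, 5.89 and 41.9. Ho2 exceeded every other library several-fold for each of these 4 genes. Hoxa4, a homeobox gene of the posterior axis, was higher in both Ho libraries, at 1.86, 2.35, 9.81 and 28.8 CPM, and did not pass with all 4 libraries in edgeR. Cxcl13, Pde5a, Ifitm1, Nkx6-1 and the long noncoding RNA D030025E07Rik completed the 12, and Foxf1 stood at 44.9, 36.1, 3.92 and 105 CPM. Its direction rested on Ho2, with a log2 fold change of 0.77 over 4 libraries and -3.37 without Ho2. The list of splanchnic, lung and foregut mesenchyme had 0 of 10 genes called (median 1.21, beside -0.01 over all genes). Its median was 1.67 over 11 genes without Ho1. The median of the list turned to -0.81 over 9 genes without Ho2.

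Among abundant genes with the smallest unadjusted p-values, Barx1, a homeobox gene of stomach mesenchyme, stood at a mean of 9.88 ± 1.59 CPM (SD, n = 2) in Wt, at 62.8 CPM in Ho1 and at 32.9 CPM in Ho2 (log2 fold change 2.07 ± 0.334, adjusted edgeR p-value 0.923). Vsnl1, a calcium sensor gene of the sinus node region, stood at 6.18, 16.9, 157 and 48.2 CPM (3.05 ± 0.637, 1.00), and Bves and Ifi30 at 25.5 to 31.7 CPM in Ho against 12.7 to 14.3 in Wt. On the lower side, Scx, a bHLH factor of tendon and valve progenitors, stood at 51.4, 68.3, 5.89 and 18.7 CPM (-1.88 ± 0.341, 0.923), and Cited1 at 68.0, 98.6, 27.5 and 35.5 (-1.30 ± 0.242, 0.923). The linker histone gene Hist1h1e stood at 219, 208, 84.4 and 117 CPM. AY036118 and Gm34030 were also at lower values in Ho, at 25.0 to 80.8 CPM against 68.7 to 155. In each of the 10 genes, Nr2f2 among them, the groups did not overlap gene by gene, and none passed the adjusted test. Their choice by small p-value favours such genes. Over all genes tested, 13.9% had both Ho above both Wt and 18.7% had both Ho below.

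**Figure D5:**
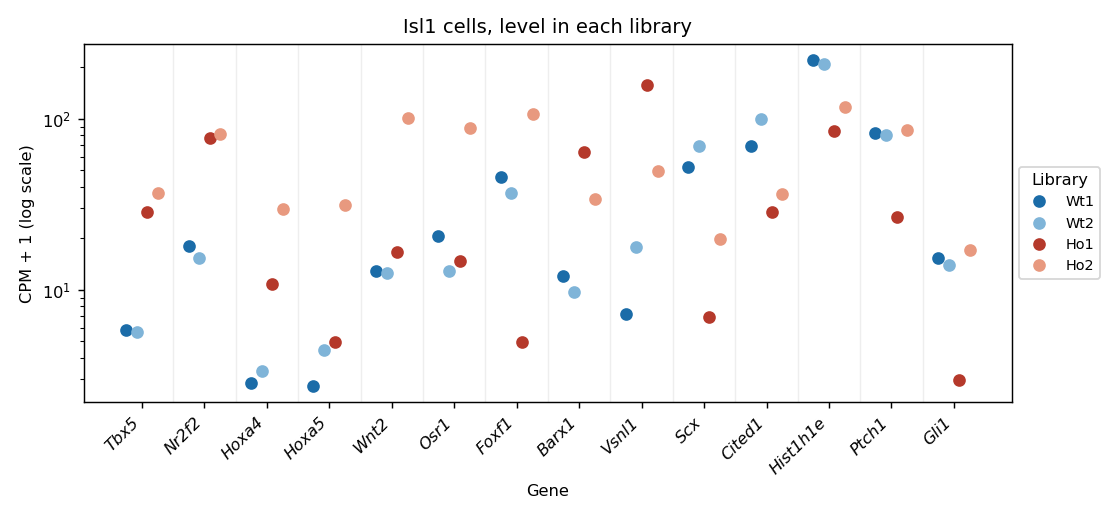
Level of 14 genes (CPM + 1, log scale) in the summed Isl1 cells of each library, each point 1 library. Tbx5 and Nr2f2 are higher in both Ho libraries, Wnt2, Hoxa5, Osr1 and Foxf1 are high in Ho2 only, and Ptch1 and Gli1 are low in Ho1 only.

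Hedgehog and sterol genes gave no call between the genotypes. Ptch1 stood at 81.8, 79.8, 25.5 and 84.8 CPM, a log2 fold change of -0.32 ± 0.388 over 4 libraries and 0.10 without Ho1. Gli1 stood at 14.3, 13.0, 1.96 and 16.1 CPM, with -0.03 ± 0.436 and 0.25. Ho1 was low in both genes and Ho2 was at or above the Wt libraries. Of 18 hedgehog genes tested 0 passed (median -0.01), and without Ho1 Osr1 was the 1 of 19 that did. Of 29 cholesterol synthesis genes 0 passed with or without Ho1. Cyp51 itself, whose transcript carries the substitution and which therefore does not check the genotype by its level, stood at 104, 111, 68.7 and 94.4 CPM (-0.33 ± 0.201, adjusted edgeR p-value 1.00). Gata4 stood at 12.7, 24.8, 53.0 and 36.4 CPM (1.19 ± 0.339, 1.00), and Tbx1 at 22.3, 24.3, 1.96 and 18.0 (-0.62 ± 0.406, 1.00). Of 25 tested second heart field factors 0 passed (median -0.12), and without Ho1 Tbx5 and Osr1 did, of 28.

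The difference of the genotype effect between Isl1 and Crabp1 cells was tested as an interaction, in which 0 of 11521 genes (0%) passed and 754 (6.54%) were under 0.05 before adjustment. For Nr2f2 the effect was larger in Isl1 cells by 2.01 ± 0.331 on the log2 scale (adjusted edgeR p-value 0.323), and for Tbx5 by 0.97 ± 0.512 (0.788). DESeq2 called 3 genes. Blood transcripts were uneven as well, with the embryonic globin gene Hba-x at 0.618, 632, 7.85 and 1.83 CPM in the Isl1 cells of Wt1, Wt2, Ho1 and Ho2, and their part in the comparisons was not tested.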

How the data were processed

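Single-cell RNA was measured in 4 libraries of E10.5 hearts, 2 Wt and 2 Ho, grouped by the titles (Wt) and the genotype entries (Ho) of their labels. The authors aligned reads to mm10 with Cell Ranger 6.1.1 and, per the labels, used Seurat 4.1.0 later (both also in the submitters' processing notes). The deposited matrices hold raw UMI counts per gene and barcode called as a cell, without normalization. Here UMI counts of the selected cells were summed per library and tested with edgeR 4.0.16 in R 4.3.3 (TMM scaling, its filter on low counts, quasi-likelihood test, Benjamini-Hochberg adjustment, threshold 0.05). Comparisons of cell sets had the library as a block, and the study's test over single cells was not repeated, since cells are not replicates. CPM are UMIs per 1000000 of a sum. Doublets were kept in the main results, and Scrublet in scanpy 1.11.5 was an alternative that marked 1.54% to 4.99% of barcodes. For marker shares each cell was thinned to 2000 UMIs. Endothelial barcodes had at least 2 UMIs of Cdh5 and Pecam1 together and under 5 Tnnt2 UMIs per 10000; those used as background for marker shares also had no Isl1 UMI.

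The members, the 28 gene lists and the further genes named were chosen with earlier results of these data known, so list counts describe these libraries and are no independent support. Named genes are those of the selection and its markers, the called members of the lists, the 12 called genes with the largest change in each direction of a cell-set comparison (mean of at least 50 CPM in the higher set, same direction in 4 libraries), and, between Ho and Wt, the 5 genes of smallest unadjusted p-value in each direction with a mean of at least 20 CPM. Wnt2, Rspo2, Hoxa4, Hoxa5 and the other genes called without Ho1 were named after their values were seen. A symbol carried by 2 identifiers was left out of summed levels. Counting is by gene, so near-identical copies are uncertain. The tests were checked on simulated data.

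Alternatives were DESeq2 1.42.0, RLE scaling, no filter or at least 10 UMIs in every library, a block for the replicate number, sums thinned to the smallest library, each library left out, other limits on Isl1, mitochondrial UMIs, depth and Crabp1, no upper limits, Crabp1 cells within the other limits and no library block. No Tnnt2 UMI, a second draw of the thinned sums, the crossed replicate numbers and matched cells in the interaction were chosen after seeing the data.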

Additional observations from a re-analysis of the deposited data

Results flagged for a closer look

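For 3 genes the Isl1 cells of both Wt libraries differed from another cell set in one direction and those of both Ho libraries in the other. Nr2f2 was lower in Isl1 cells than in Crabp1 cells in Wt, with a mean log2 ratio of CPM plus 1 of -0.278, and higher in Ho, with 1.67; the interaction test gave 2.01 ± 0.331 (adjusted edgeR p-value 0.323). Against the matched cells without Isl1 the ratios of Nr2f2 were -0.594 in Wt and 0.605 in Ho, with a difference of 1.18 ± 0.324 (adjusted edgeR p-value 1.00). Vsnl1 against Crabp1 cells had -0.403 in Wt and 1.23 in Ho, with a tested difference of 1.62 ± 0.522 (adjusted edgeR p-value 0.600). Scx against matched cells had 0.806 in Wt and -1.49 in Ho, with a tested difference of -1.80 ± 0.362 (adjusted edgeR p-value 1.00). None of these differences passed the adjusted test.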

How the results depend on the processing

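Depth and Ho1 set the limits, since its 34 cells hold 509647 UMIs, and genes under 5.89 CPM could be missed there. Between Ho and Wt, where 0 genes were called, 6 passed with DESeq2, 164 with no filter on low counts, 1 with at least 10 UMIs in every library, 2 without Scrublet doublets (Tbx5 and Nr2f2) and 8 in cells with no Tnnt2 UMI. Leaving out 1 library gave 0 to 69 calls (8 without Wt1, 12 without Ho1 and 69 without Ho2). With the replicate number as a replicate block 1 gene passed, Pf4, a platelet gene. Same-numbered libraries deviated only weakly in opposite directions (correlation -0.193 over 11907 genes). With the crossed replicate block, which was chosen after seeing the data, 36 genes passed, 22 of them higher in Ho. Because of that choice these calls are no independent support. The labels do not say that a number marks a shared litter or day.

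Against Crabp1 cells, where 345 were called, 1114 passed with no filter, 139 with at least 10 UMIs in every library, 24 with no library block, 136 with Crabp1 cells within the other limits, 173 with at least 5 Crabp1 UMIs, and 147 to 928 when 1 library was left out (928 without Wt1, 147 without Wt2, 210 without Ho1 and 166 without Ho2). Against matched cells, where 1712 were called, 2624 passed with no filter, 979 with at least 10 UMIs in every library, and 576 without Wt2 to 1840 without Wt1, with 770 without Ho2 and 1450 without Ho1. The interaction, with 0 calls, gave 3 with DESeq2, 155 with no filter, 58 with Crabp1 cells within the other limits, and 0 to 487 when 1 library was left out (52 without Wt1 and 487 without Wt2). The causes were not tested.

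Directions turned in a few cases. Between Ho and Wt these were Ptch1 (0.10 without Ho1 and -1.67 without Ho2), Gli1 (0.25 and -2.79), Gli1 with at least 2 Isl1 UMIs (0.0036), Foxf1 in 1 random draw of thinned sums (-0.27, but 0.70 in a second draw), Foxf1 (1.39 without Ho1 and -3.37 without Ho2) and Osr1 (2.45 and -0.25). With Crabp1 cells within the other limits 11 muscle genes turned, with Myl3 at 0.57, Cox6a2 at 0.99, Myh7 at 1.44, Myl2 at 0.33, Myh6 at 1.17, Actc1 at 0.48, Myl1 at 0.41, Myl7 at 0.041, Tcap at 1.02, Ttn at 1.43 and Acta1 at 1.15. The share of Isl1 cells ran from 0.139 points without Ho1 to -6.62 without Ho2. Of the marker shares, Fgf8 (-0.555 points) and Gata4 (-0.347) turned with at least 2 Isl1 UMIs, and Gata6 turned with no thinning (12.3) and at 5000 UMIs (8.40). The named genes of the comparison with matched cells kept their direction in all alternatives run, and 2 of their values fell short of the threshold, Csrp3 without Wt2 and Mfap4 with DESeq2. For the named genes of the comparison with Crabp1 cells, 34 values fell short of the threshold, beside the 11 that turned.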
